A study of Homo sapiens with 6 samples.

Results

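The genes described here are 42 genes of transforming growth factor beta (TGF-beta) signalling and of the epithelial-mesenchymal transition (EMT), chosen by name: ligands, receptors, regulators, induced genes and EMT genes, without the SMAD genes. Each gene was read by its brightest probe set among those annotated with that symbol alone, and 41 of the 42 had such a probe set, out of 19775 genes measured. The one without was ITGB6, whose probe sets all carry a second symbol, so it is not analysed here. The cells were HCT116, an established human colon carcinoma line, transfected for 24 h with a precursor of the microRNA miR-224 at 50 nM or with control oligos at 50 nM. There were 3 arrays of miR-224 cells and 3 of control cells, from 3 independent experiments that each gave a pair. Both groups were the same line, and share its mutations: HCT116 is mismatch repair deficient and is known to carry frameshift mutations that inactivate the type II receptor TGFBR2, which limits it as a model of TGF-beta signalling.

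TGF-beta is secreted in a latent form that is tethered to the matrix by latent TGF-beta binding proteins and is released by integrins and thrombospondin. The active ligand binds TGFBR2, which recruits and phosphorylates TGFBR1, and TGFBR1 phosphorylates SMAD2 and SMAD3, which enter the nucleus with SMAD4. Activins use the receptors ACVR2A and ACVR1B and the same SMADs. In normal colon epithelium the pathway restrains growth, and in carcinomas that keep it the pathway can drive EMT through SNAI, ZEB and TWIST factors.

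The transfected agent is shown because its seed, the bases that pair with target messenger RNAs, defines what it can bind. The mature strand hsa-miR-224-5p is read from chrX:151958628-151958652 on the minus strand (GRCh38.p14, RefSeq), and capitals mark bases 2 to 8. Matches to this seed in the messenger RNAs of the 42 genes were not analysed here.
hsa-miR-224-5p: uCAAGUCAcuagugguuccguuuag

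None of the 41 genes passed the test between miR-224 and control cells with experiment as a block (limma, adjusted p under 0.05 over all genes), and 0 of all 19775 genes did (0%). The lowest adjusted p of a member was 0.218, that of CCN1. At an unadjusted p under 0.05 there were 10 of the 41 (24.4%), against 2169 of all genes (11.0%). Of these 10, 8 were higher in miR-224 cells (19.5% of the members, against 5.45% of all genes) and 2 were lower (4.88%, against 5.52%). The higher ones were TGFB1, INHBA, FST, TGFBR1, ACVR2A, TGFBI, ITGA5 and TWIST1, and the lower ones were CCN1 and LTBP2. In bulk RNA such as this, fewer cells that express a gene and less of its RNA per cell cannot be told apart. Without the block the same test called 0 of the 41, and 1 (LTBP2) had an unadjusted p under 0.05, against 1.58% of all genes.

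The differences were small. Over the 41 genes they ran between -0.48 and 0.39 on the log2 scale, with a median of 0.03, compared with a median of 0.01 over all genes. The median absolute difference was 0.14 in the members and 0.10 over all genes, next to a median standard error of 0.12 and 0.11. A lower mean in miR-224 cells was found for 16 of the 41 (39.0%, against 46.8% of all genes), and 18 had the same sign in all 3 experiments (43.9%, against 32.7%). The median over the members was 0.12, 0.04 and 0.004 in experiments 1, 2 and 3. The arrays of both groups did not overlap for 3 of the 41 (7.32%, against 6.27% of all genes), namely INHBA, LTBP2 and TGFBI.

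**Figure D1:**
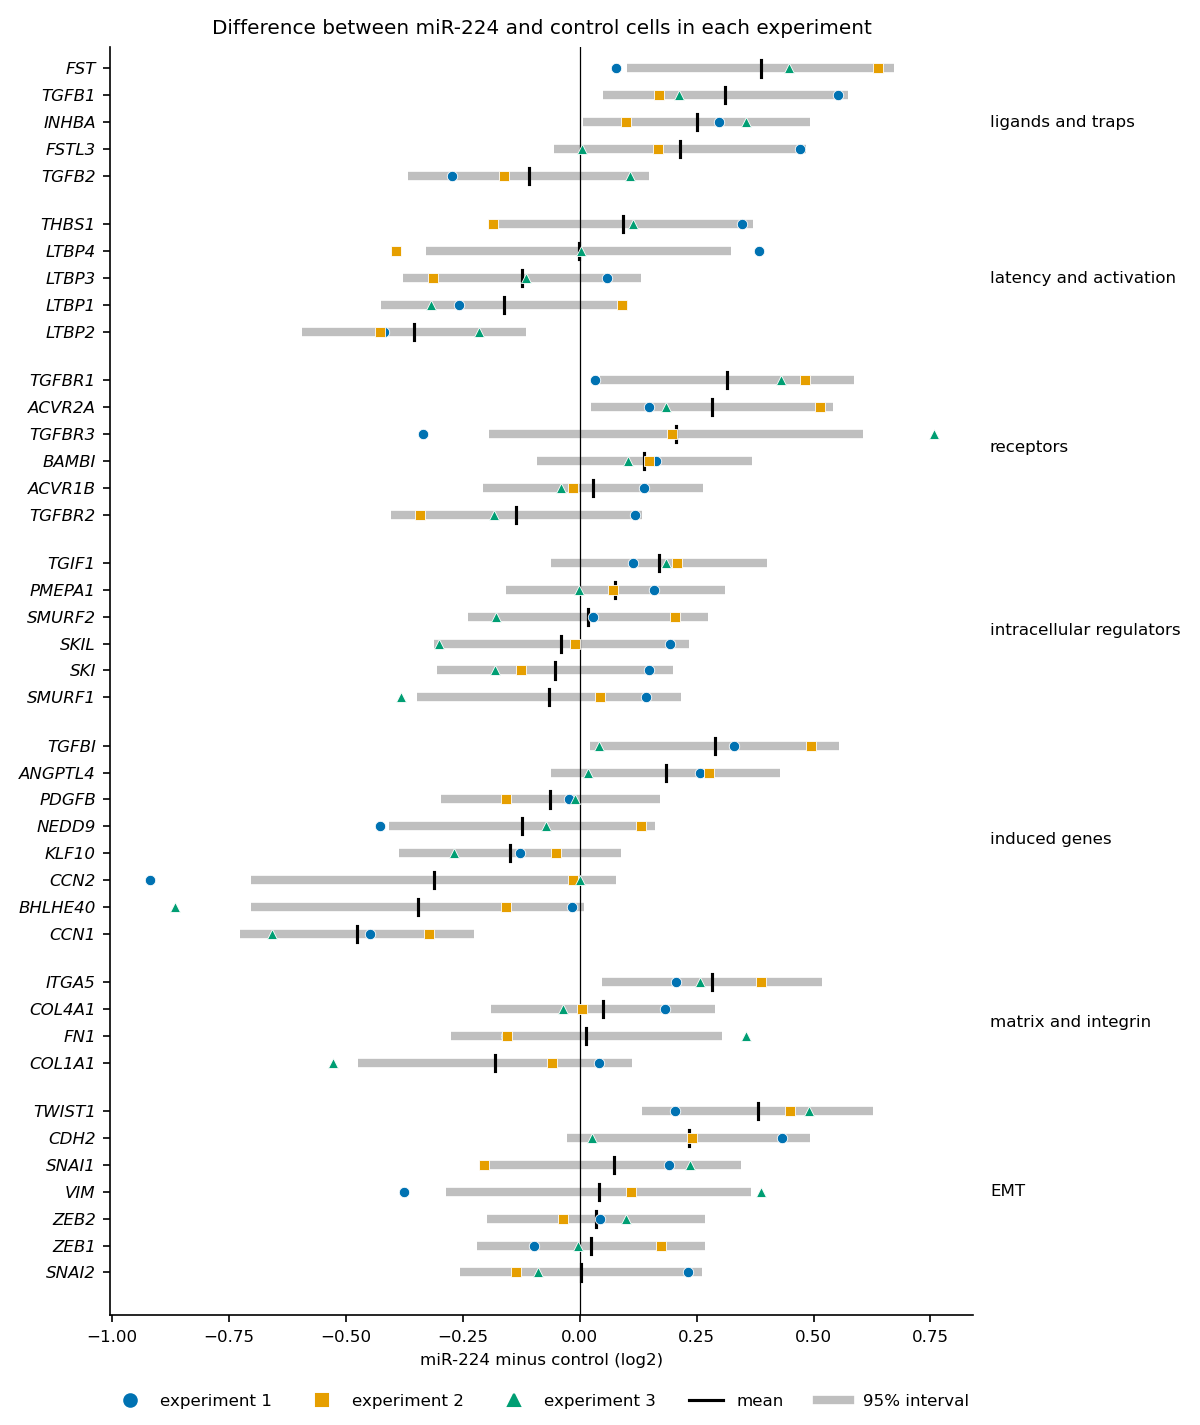
Difference between miR-224 and control cells (x axis, log2) for the 41 genes in their role groups, with 1 symbol for each experiment, a black tick for the mean of the 3 and a grey bar for the 95% interval of the blocked limma fit, whose variances are pooled over genes. Means lie between -0.48 (CCN1) and 0.39 (FST), and the intervals of 10 genes leave out 0.

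The experiments also differed from each other in level. The block takes such offsets out of the paired differences, so they do not measure the precision of those differences. The spread between experiment means was larger than the difference between miR-224 and control for 36 of the 41 genes (87.8%, against 87.3% of all genes). Both arrays of experiment 1 stood apart from the other 4. On the brightest probe sets, experiment 1 was set against the mean of experiments 2 and 3. CCN1 was higher in it by 1.93, SKI by 1.26, TGFBR1 by 1.01 and TWIST1 by 0.94 on the log2 scale. LTBP3 stood at -1.97, BHLHE40 at -1.43 and LTBP4 at -0.83. Other probe sets did not all follow. The second one of CCN1 went the opposite way, at 4.22 and 4.21 in experiment 1 against 4.90 to 5.66 in the others. Those of SKI (5.53 and 5.46 against 5.35 to 5.55) and LTBP3 (7.28 and 7.20 against 6.98 to 7.63) shifted little. The second ones of BHLHE40 and LTBP4 were lower in experiment 1 too. The control probe set at the 5′ end of actin read 4.28 on average in experiment 1, against 12.3 to 12.5 in the others, and that of GAPDH 4.10 against 13.0, whereas their 3′ probe sets read 12.4 to 13.1 throughout. Both groups share this in experiment 1, and its part in the members' values was not tested.

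**Figure D2:**
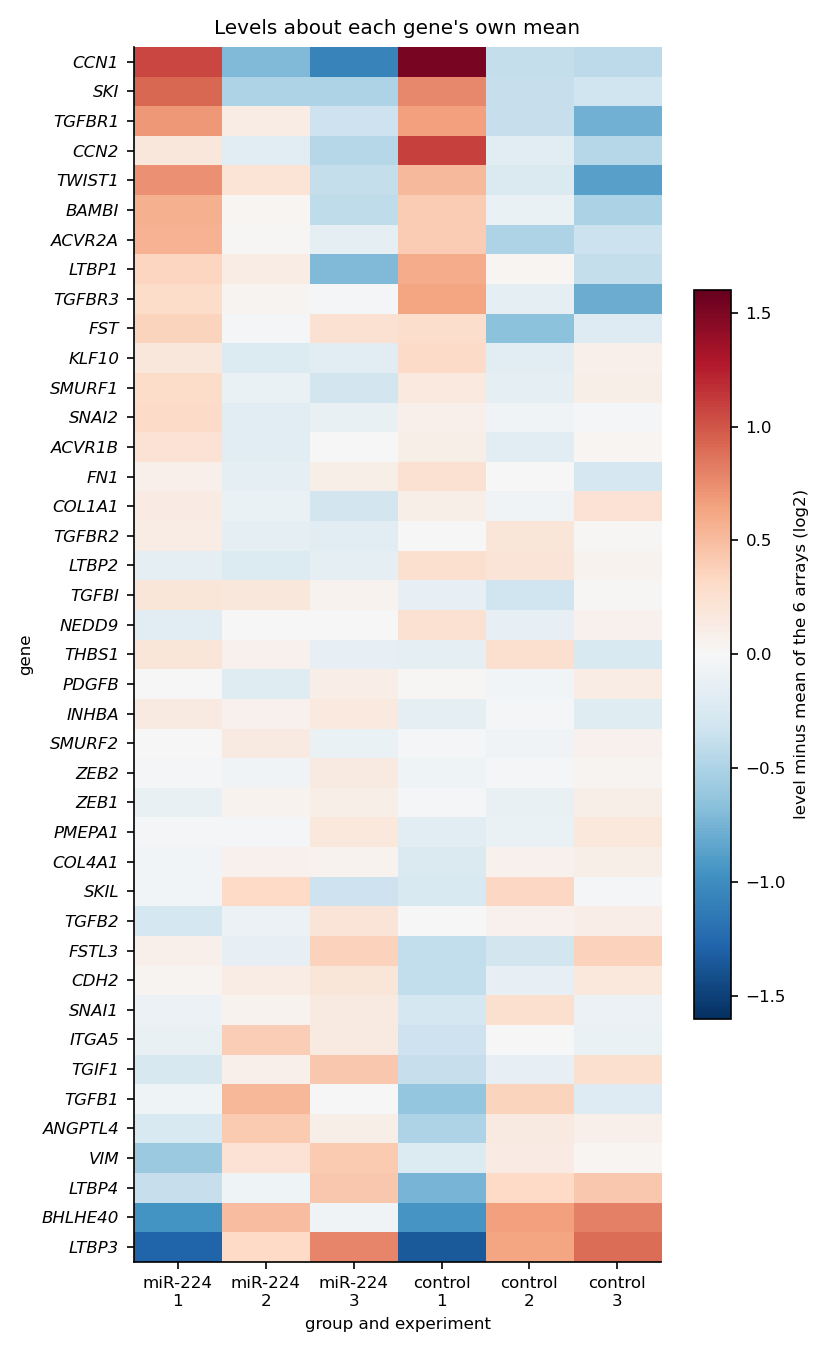
Level of each gene on its brightest probe set, minus its own mean over the 6 arrays (colour, log2). The miR-224 arrays of experiments 1 to 3 are left of the control arrays of experiments 1 to 3. Genes run down by how much higher experiment 1 was than the mean of experiments 2 and 3, CCN1 at 1.93 on top and LTBP3 at -1.97 at the bottom. The columns of experiment 1 resemble each other across the groups.

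The labelled cell type was checked on 6 epithelial markers. EPCAM, KRT8, KRT18 and KRT19 were at or above the median level of all genes (4.75), and CDH17 (2.45) and VIL1 (3.95) were not. None of 6 fibroblast, 3 endothelial and 3 leukocyte markers reached that median. The 6 fibroblast markers summed to 18.4 to 20.2 log2 units in miR-224 cells and 18.1 to 19.0 in control cells. Of the 3 leukocyte markers, PTPRC stood at 0.28 (unadjusted p = 0.024, mean level 2.56), CD3E at -0.21 and CD14 at -0.14. Of the 41 genes, 16 likewise lay below the median level of all genes, among them INHBA, FST, LTBP2, TGFBI and TWIST1 of the 10.

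Among the ligands and their traps, 4 of 5 genes had a higher mean in miR-224 cells (80.0%, against 53.2% of all genes) and 3 of these had an unadjusted p under 0.05 (60.0%, against 5.45% of all genes in that direction). TGFB1, the main ligand of the pathway, read 7.51, 8.10 and 7.58 in miR-224 cells of experiments 1, 2 and 3, against 6.95, 7.93 and 7.37 in control cells. It was higher in each experiment, though the groups overlapped, and the difference was largest in experiment 1. The mean difference was 0.31 ± 0.12 (SE, log2, adjusted p = 0.372) and 0.19 without experiment 1, and its other probe set, which is dim, stood at 0.22.

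FST encodes follistatin, which binds and neutralises activins. It read 4.78, 4.40 and 4.67 in miR-224 cells and 4.70, 3.77 and 4.22 in control cells, higher in each experiment with overlapping groups. The difference was 0.39 ± 0.13 (adjusted p = 0.326), the largest upward one of the 41 genes, and 0.08, 0.64 and 0.45 in experiments 1, 2 and 3. Its other probe sets stood at 0.30 and 0.015.

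INHBA, the subunit of activin A, read 3.05, 2.97 and 3.06 in miR-224 cells and 2.75, 2.87 and 2.70 in control cells. The groups did not overlap, but all 6 values were far below the median of all genes, and the other probe sets of the gene stood at -0.002 and 0.07. The difference was 0.25 ± 0.11 (adjusted p = 0.446). FSTL3, a follistatin-like activin trap, was at 0.47, 0.17 and 0.0045 in experiments 1, 2 and 3, with a mean of 0.21 that was 0.086 without experiment 1. TGFB2, a second ligand, was at -0.11 ± 0.11, and at -0.027 without experiment 1.

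Of the 5 genes of TGF-beta latency and activation, 4 had a lower mean in miR-224 cells (80.0%, against 46.8% of all genes), all of them LTBP genes, although LTBP4 was at 0.018 after a further quantile normalization. LTBP2, a matrix protein of this family that does not itself bind latent TGF-beta, read 4.51, 4.45 and 4.51 in miR-224 cells and 4.92, 4.88 and 4.72 in control cells. All miR-224 arrays were below all control arrays. The difference was -0.35 ± 0.11 (adjusted p = 0.284), and a second, dimmer probe set stood at 0.05, -0.08 and -0.57 in experiments 1, 2 and 3.

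LTBP1, which does tether latent TGF-beta, read 5.51, 5.28 and 4.46 in miR-224 cells and 5.77, 5.19 and 4.78 in control cells. It was higher in miR-224 cells of experiment 2 alone, and the difference of -0.16 ± 0.12 had a 95% interval of -0.43 to 0.10 and was -0.29 without experiment 2 and -0.083 without experiment 3. LTBP3 (-0.12, and -0.028 without experiment 2) and LTBP4 (-0.002) changed sign between experiments, LTBP4 standing at 0.38, -0.39 and 0.004. THBS1, the secreted activator thrombospondin-1, was at 0.09 ± 0.12.

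Of the 6 receptor genes, 5 had a higher mean in miR-224 cells (83.3%, against 53.2% of all genes), 2 had an unadjusted p under 0.05 (33.3%, against 11.0%), and all 6 were at or above the median level. TGFBR1, the type I receptor kinase, read 7.13, 6.56 and 6.11 in miR-224 cells and 7.10, 6.07 and 5.68 in control cells. Each miR-224 array was above its control, by 0.03, 0.48 and 0.43, with overlapping groups. The mean difference was 0.31 ± 0.12 (adjusted p = 0.384) on the brightest probe set, while dim ones stood at 0.18 and -0.10.

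TGFBR2, the ligand-binding type II receptor, read 7.50, 7.24 and 7.22 in miR-224 cells and 7.38, 7.58 and 7.40 in control cells. It was higher in miR-224 cells of experiment 1 and lower in those of experiments 2 and 3. The difference was -0.14 ± 0.12, with a 95% interval of -0.40 to 0.13, and the second probe set stood at 0.015. The difference on the brightest was -0.26 without experiment 1 and -0.033 without experiment 2.

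TGFBR3, the co-receptor betaglycan, read 6.31, 6.05 and 5.97 in miR-224 cells and 6.64, 5.86 and 5.22 in control cells. The 3 miR-224 values lay within the range of the control values, and the difference was -0.33, 0.20 and 0.76 in experiments 1, 2 and 3. Its mean was 0.21 ± 0.18 and its direction rested on experiment 3, without which it was -0.07.

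The activin receptor ACVR2A, a type II receptor, read 6.45, 5.92 and 5.74 in miR-224 cells and 6.30, 5.40 and 5.56 in control cells. It was higher in each experiment with overlapping groups, by 0.28 ± 0.12 (adjusted p = 0.416), or 0.17 without experiment 2. Its second probe set, below the median level, stood at -0.16, 0.51 and 0.35 in experiments 1, 2 and 3, and at 0.24 on average. The type I activin receptor ACVR1B was at 0.03 ± 0.10, and BAMBI, a decoy receptor without kinase activity, was at 0.16, 0.15 and 0.10 in experiments 1, 2 and 3.

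The 6 intracellular regulators split evenly, with 3 means higher and 3 lower in miR-224 cells, and 0 of 6 had an unadjusted p under 0.05, against 11.0% of all genes. TGIF1, a homeodomain repressor that binds SMADs, read 8.78, 9.11 and 9.47 in miR-224 cells and 8.66, 8.90 and 9.29 in control cells. All 3 experiments had it higher by similar amounts, 0.17 ± 0.10 on average (adjusted p = 0.600). Its other probe sets disagreed with each other, at -0.53 on one at about the median level (-0.04, -0.78 and -0.76 in experiments 1, 2 and 3) and at 0.30 on one below it.

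The corepressors SKI and SKIL were at -0.05 ± 0.11 and -0.04 ± 0.12, and both were higher in experiment 1 and lower in experiments 2 and 3. The ubiquitin ligases SMURF1 and SMURF2, which mark receptors and SMADs for degradation, were at -0.07 ± 0.13 and 0.02 ± 0.11. A dimmer probe set of SMURF2 stood at -0.33 ± 0.11, lower in each experiment. PMEPA1, a membrane protein that sequesters SMADs and is induced by TGF-beta, was at 0.08 ± 0.10, below the median level. Its other probe sets, dimmer still, stood at 0.13 and 0.25, the latter higher in each experiment.

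Of 8 genes grouped here as induced by TGF-beta, 6 had a lower mean in miR-224 cells (75.0%, against 46.8% of all genes). On the brightest probe sets 1 of these 6, CCN1, had an unadjusted p under 0.05 (12.5% of the 8, against 5.52% of all genes in that direction). NEDD9 was at 0.029 without experiment 1. PMEPA1, also induced by TGF-beta but grouped with the regulators, was at 0.08 on a probe set below the median level. CCN1 had the largest downward difference of the 41 genes. CCN1, a secreted matricellular protein also known as CYR61, read 7.44, 5.67 and 5.30 in miR-224 cells and 7.89, 5.99 and 5.96 in control cells. Each miR-224 array was below the control array of its experiment, while experiment 1 lay well above the other experiments in both groups. The difference was -0.48 ± 0.11 (unadjusted p = 0.0019, adjusted p = 0.218). It was -0.49, -0.55 and -0.38 without experiments 1, 2 and 3. A second probe set at about the median level stood at 0.01, -0.24 and -0.35 in experiments 1, 2 and 3, and at -0.19 on average. On that probe set experiment 1 lay below the other experiments in both groups.

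CCN2, or CTGF, is the closest relative of CCN1 among these genes and is often used beside it as a readout of TGF-beta and of YAP. It read 3.30, 2.94 and 2.66 in miR-224 cells and 4.22, 2.95 and 2.66 in control cells. The difference was -0.92 in experiment 1 and -0.015 in experiment 2, and both arrays of experiment 3 held the same value. The mean was -0.31 ± 0.17, and -0.0073 without experiment 1, and the gene lay below the median level of all genes on every array.

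BHLHE40, a basic helix-loop-helix repressor, read 6.82, 8.27 and 7.73 in miR-224 cells and 6.84, 8.43 and 8.59 in control cells. It was lower in each experiment, almost all of it in experiment 3, and the mean was -0.35 ± 0.16 (unadjusted p = 0.055) but -0.09 without that experiment. Its second probe set was lower throughout, at -0.43, -0.14 and -0.90, with an unadjusted p of 0.011 in the blocked limma fit of all probe sets. KLF10, an early TGF-beta response factor, was at -0.15 ± 0.11 with the same sign in each experiment, and at -0.089 without experiment 3.

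TGFBI, a secreted adhesion protein, had the largest upward difference of the induced genes. It read 3.99, 3.98 and 3.86 in miR-224 cells and 3.66, 3.48 and 3.81 in control cells, without overlap but below the median level on every array. The difference was 0.29 ± 0.12 (adjusted p = 0.421), and 0.19 without experiment 2. ANGPTL4, an inhibitor of lipoprotein lipase, was at 0.18 ± 0.11, NEDD9, a docking protein of focal adhesions, at -0.12 ± 0.13 and PDGFB, a growth factor chain, at -0.06 ± 0.10.

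**Figure D3:**
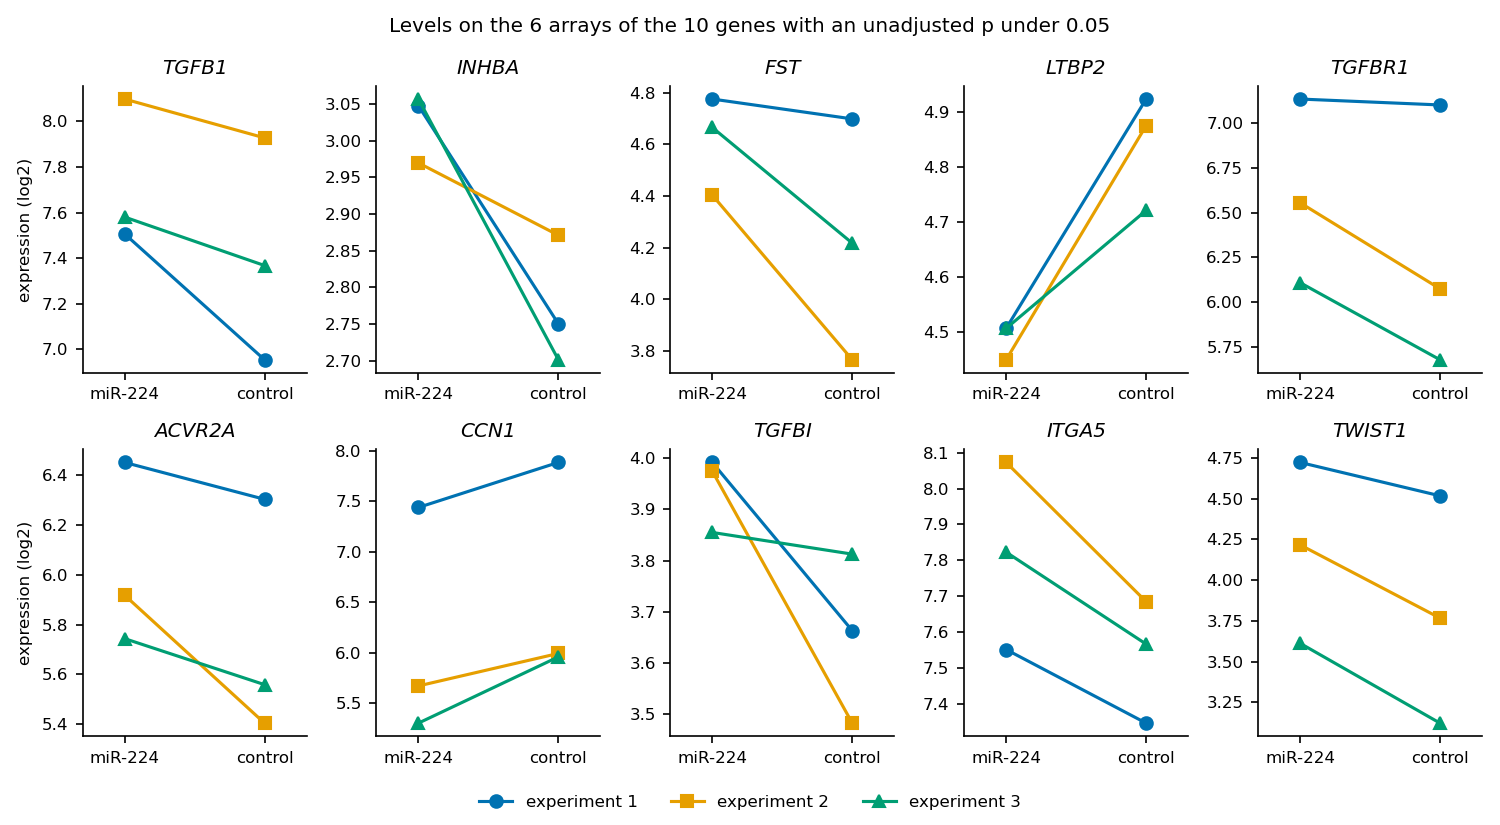
Level (y axis, log2; each panel has its own range) of the 10 genes with an unadjusted p under 0.05 on the miR-224 arrays (left) and control arrays (right), with lines that join the pair of each experiment. All lines of CCN1 and LTBP2 lie lower at miR-224 and all lines of the other 8 lie higher, while the experiments differ from each other by up to 2.04 for CCN1.

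Of the 4 matrix and integrin genes, ITGA5 had the largest difference. It encodes the alpha subunit of the fibronectin receptor, and read 7.55, 8.07 and 7.82 in miR-224 cells and 7.35, 7.68 and 7.57 in control cells. It was higher in each experiment by 0.21, 0.39 and 0.26, and the groups overlapped, with experiment 1 the lowest in both. The mean difference was 0.28 ± 0.10 (adjusted p = 0.367). Its ligand fibronectin, FN1, was at 0.01 ± 0.13, with -0.16, -0.16 and 0.36 in the experiments, and the collagen genes COL1A1 and COL4A1 were at -0.18 ± 0.13 and 0.05 ± 0.11. COL1A1 stood at 0.04, -0.06 and -0.53 in experiments 1, 2 and 3, and its mean was -0.0080 without experiment 3.

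Among the EMT genes all 7 means were higher in miR-224 cells (100% against 53.2% of all genes). However, 2 of the 7 had the same sign in all 3 experiments (28.6%, against 32.7% of all genes). SNAI2 was at -0.012 with arrays centred on their medians, and SNAI2 at -0.022 and ZEB1 at -0.011 after a further quantile normalization. ZEB1 was at -0.027 with its probe sets averaged. SNAI1, SNAI2, ZEB1 and VIM also changed sign when an experiment was left out. Levels of the EMT genes lay below the median of all genes for 6 of the 7. TWIST1, a basic helix-loop-helix factor that drives mesenchymal programmes, read 4.72, 4.22 and 3.61 in miR-224 cells and 4.52, 3.77 and 3.12 in control cells. Each pair had it higher, by 0.20, 0.45 and 0.49, with overlapping groups, and the experiment means spanned 1.25. The difference was 0.38 ± 0.11 (unadjusted p = 0.0066, adjusted p = 0.274), and the gene has 1 probe set.

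SNAI1, a repressor of E-cadherin and the one EMT gene above the median level, read 5.99, 6.13 and 6.22 in miR-224 cells and 5.80, 6.34 and 5.99 in control cells. The groups overlapped and the sign changed between experiments, with a mean of 0.07 ± 0.12 and a 95% interval of -0.20 to 0.35. VIM, the mesenchymal filament vimentin, stood at -0.38, 0.11 and 0.39 in experiments 1, 2 and 3, a mean of 0.04 ± 0.14. N-cadherin, CDH2, was at 0.23 ± 0.12 (adjusted p = 0.507), with 0.43, 0.24 and 0.03 in experiments 1, 2 and 3 and a mean of 0.13 without experiment 1. The repressors SNAI2 (0.0025), ZEB1 (0.02) and ZEB2 (0.04) had levels of 2.42 to 2.77 and intervals within -0.26 and 0.27.

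The brightest probe sets were one reading of genes that mostly have several. The 41 genes have 120 probe sets, and of the 79 that were not the brightest, 48 had the sign of the brightest one. Of the 16 among them at or above the median level, 10 did. For the 10 genes with an unadjusted p under 0.05, 8 of 10 further probe sets had the same sign of the mean difference. The exceptions were dim ones of INHBA and TGFBR1, and 3 genes (TGFBI, ITGA5 and TWIST1) had no other. Of these 8, those of ACVR2A, CCN1, LTBP2 and TGFBR1 and the dimmest of FST changed sign between experiments. All but that of CCN1 lay below the median level. The share of such agreement over all genes was not computed. Among the 79, 5 had an unadjusted p under 0.05 themselves (6.33%, against 10.0% of all 41091 probe sets), those of BHLHE40, PMEPA1 and SMURF2 and a pair of TGIF1.

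**Figure D4:**
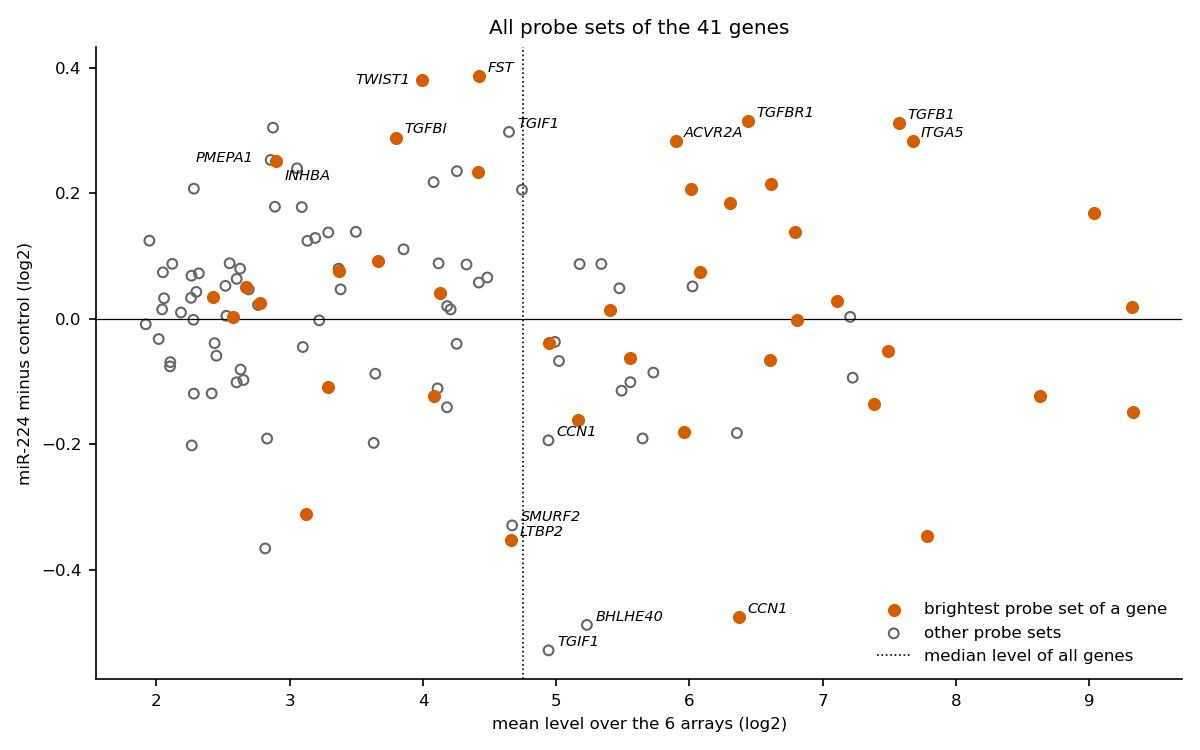
Difference between miR-224 and control cells (y axis, log2) against the mean level over the 6 arrays (x axis, log2) for the 120 probe sets of the 41 genes, filled for the brightest of each gene and open for the other 79, with the median level of all genes (4.75) dotted. Named points are those with an unadjusted p under 0.05, and both probe sets of CCN1; the most negative one is a TGIF1 probe set at -0.53.

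Of 38 further genes of the pathway, 37 were measured (USP15 is not analysed here), 0 passed the blocked test and 7 had an unadjusted p under 0.05 (18.9%, against 11.0% of all genes), of which 2 were higher and 5 lower. ACVR2B, the relative of ACVR2A, read 5.89, 5.62 and 5.91 in miR-224 cells and 6.09, 6.20 and 6.16 in control cells, a difference of -0.35 ± 0.12 without overlap that is opposite in sign to ACVR2A. The lowest adjusted p of these genes was 0.266. PPM1A, a phosphatase of SMAD2 and SMAD3, was higher by 0.47 ± 0.16, at 0.04, 0.95 and 0.41 in experiments 1, 2 and 3. In the same order, the ubiquitin ligase WWP1, at -0.36 ± 0.15, stood at -0.04, -0.22 and -0.82. INHBB, another activin subunit, at -0.28 ± 0.11, stood at -0.43, -0.06 and -0.35. The receptor-activated SMADs differed in sign. SMAD2 was at 0.37 ± 0.14 (0.13, 0.76 and 0.21) and SMAD3 at -0.38 ± 0.11 (-0.26, -0.36 and -0.50). SMAD4 was at -0.79 ± 0.23, made up of -0.28, -0.40 and -1.70 in experiments 1, 2 and 3.

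Promoters are shown for CCN2, ITGA5 and LTBP2 as examples that hold letters searched for. Windows of other members, among them ACVR2A and INHBA, hold such letters too. The windows run from 250 bases before to 50 after the annotated start (RefSeq, GRCh38.p14), and 34 of the 42 genes had at least 1. SKI, KLF10, CCN1, PDGFB, COL1A1, SNAI1, SNAI2 and TWIST1 had no entry. Searched on both strands were CAGAC, a short SMAD motif, the SMAD binding element GTCTAGAC, which does not contain CAGAC, and GGAATG, the site of TEAD factors. Capitals mark CAGAC and GGAATG.
CCN2, chr6:131951323-131951622, minus strand: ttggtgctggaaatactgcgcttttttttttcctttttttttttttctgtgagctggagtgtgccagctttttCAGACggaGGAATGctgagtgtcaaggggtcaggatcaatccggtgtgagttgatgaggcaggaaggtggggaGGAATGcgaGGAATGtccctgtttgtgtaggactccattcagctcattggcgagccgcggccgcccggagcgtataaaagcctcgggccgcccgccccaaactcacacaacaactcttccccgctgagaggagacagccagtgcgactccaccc
ITGA5, chr12:54419217-54419516, minus strand: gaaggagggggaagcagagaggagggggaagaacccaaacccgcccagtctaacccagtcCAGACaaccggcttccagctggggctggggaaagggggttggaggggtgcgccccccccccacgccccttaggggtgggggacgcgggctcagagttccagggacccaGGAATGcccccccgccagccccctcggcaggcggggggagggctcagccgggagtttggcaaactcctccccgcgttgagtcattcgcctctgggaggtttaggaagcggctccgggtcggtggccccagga
LTBP2, chr14:74612188-74612487, minus strand: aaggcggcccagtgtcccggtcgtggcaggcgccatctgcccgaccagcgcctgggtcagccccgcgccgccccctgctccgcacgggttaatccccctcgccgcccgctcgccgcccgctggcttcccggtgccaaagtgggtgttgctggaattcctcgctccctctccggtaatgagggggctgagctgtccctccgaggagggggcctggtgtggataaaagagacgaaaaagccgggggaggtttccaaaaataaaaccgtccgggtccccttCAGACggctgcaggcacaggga

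The CCN2 window holds 3 GGAATG and 1 CAGAC, that of ITGA5 holds 1 of each and that of LTBP2 holds 1 CAGAC. Over all 65 windows of the members, several of which belong to 1 gene and overlap, CAGAC was in 37 (56.9%, against 45.3% of 35116 windows) and GGAATG in 9 (13.8%, against 14.0%). GTCTAGAC was in 0 of the 65 and in 0.202% of all windows. These are matches of letters and no measure of binding, and TGFB1, FST and TGFBI, which were among the 8 higher genes, had no match to any of the 3 in their windows.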

How the data were processed

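The deposited values of 6 Affymetrix arrays were used; they were taken as log2 values made by the authors with RMA and Partek, per the submitters' processing notes; the settings and the base of the log are not known here, and base 2 was assumed. They lay between 1.47 and 13.6. RMA equalises arrays, so differences are relative to the bulk of genes. Of 54675 probe sets, 41091 had 1 gene symbol in the array annotation; control probe sets were left out of the fits. Each of 19775 genes was read by its brightest probe set.

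The difference of each gene was fitted by lmFit and moderated by eBayes (limma 3.58.1, R 4.3.3), two-sided, with Benjamini-Hochberg adjustment across the 19775 genes and a threshold of 0.05. Experiment was a block, because the series describes pairs from independent experiments; standard errors and 95% intervals are of that moderated fit. Deviations from the group means correlated at 0.855, 0.585 and 0.771 between arrays of one number and at -0.753 to 0.257 otherwise. The fit was tested on simulated data with changes of 1 and 2 on the log2 scale in 200 genes. At an adjusted p under 0.05 it recovered 58% and 91% of these, with 1 false call. Changes as small as those of the members were not simulated.

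The members, lists and alternatives were chosen with earlier results of these data known. Values on every array are given for members with an unadjusted p under 0.05, the largest difference of each role group among genes not below the median level, TGFB1 and the TGF-beta receptors; those of CCN2 and BHLHE40 were added after their values were seen. Alternatives were no block, each experiment left out, brighter genes alone, probe sets averaged or tested singly, other scalings and other variance settings. Further pathway genes are named at an unadjusted p under 0.05. Figures were drawn with matplotlib 3.10.9.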

Additional observations from a re-analysis of the deposited data

How the results depend on the processing

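With the replicate number (experiment) as a block, 0 of the 41 genes passed over all genes, and the same held without the block and under the other alternatives. The number of all genes called was 174 without experiment 1 and 56 with an intensity trend and robust variances, against 0 under the other settings. Without the replicate block, 1 member had an unadjusted p under 0.05 in place of 10. That was 2.44% of the members against 1.58% of all genes, compared with 24.4% against 11.0% with the block. The count was 5 of the 25 members left when dimmer genes were not tested (20.0% against 12.4%), and 9 or 10 under the other settings that keep all arrays and the block (all genes 10.0% to 11.1%). With an experiment left out it was 4 to 10, the 4 being without experiment 2 (9.76% against 6.72%). Experiments were left out as pairs, since an array without its partner carries no information in the blocked fit. None of the 10 genes with an unadjusted p under 0.05 changed sign in the settings run. Of 394 values of single genes under the alternatives, 26 changed sign and 0 changed side of the threshold. With all probe sets of a gene averaged, these were TGFB2 at 0.0086, THBS1 at -0.053, TGIF1 at -0.021, SMURF2 at -0.10, NEDD9 at 0.017 and ZEB1 at -0.027. With arrays centred on their medians they were FN1 at -0.00022 and SNAI2 at -0.012, and with a further quantile normalization LTBP4 at 0.018, SNAI2 at -0.022 and ZEB1 at -0.011. With an experiment left out, genes that changed sign lay between these ends: THBS1 at -0.035 to 0.23, ACVR1B at -0.026 to 0.063, NEDD9 at -0.25 to 0.029, COL4A1 at -0.016 to 0.093, SNAI2 at -0.11 to 0.071, LTBP4 at -0.19 to 0.19, SMURF2 at -0.075 to 0.12, ZEB1 at -0.050 to 0.086, TGFBR3 at -0.068 to 0.48, SKI at -0.15 to 0.012, SKIL at -0.15 to 0.092, SMURF1 at -0.17 to 0.092, FN1 at -0.16 to 0.10, VIM at -0.13 to 0.25 and SNAI1 at -0.0075 to 0.21. The cause was not tested. Precision is limited by having 3 arrays in each group, and 16 of the 41 genes were dim.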
